A study of Mus musculus with 8 samples.

Results

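The microRNAs (miRNAs) described here are 8 mature mouse miRNAs known from white blood cells, measured in heart tissue after a myocardial infarction (MI) or a sham operation. They were chosen from a list by their miRBase accessions, not by their values, though with earlier results of these data known. They are 8 of the 1908 mature miRNA probe sets of an Affymetrix miRNA 4.0 array. On it a probe set is the group of probes that reads a single miRNA. By known role they comprise the myeloid miR-223-3p, the pan-leukocyte arms miR-142a-5p and miR-142a-3p, the activation-linked miR-155-5p, miR-146a-5p and miR-146b-5p, and the lymphocyte miR-150-5p and miR-342-3p. The MI+nc hearts, numbered 1, 4, 5 and 7, were taken 21 days after the anterior descending coronary artery was tied off. The Sham+nc hearts, numbered 1 to 4, were taken 21 days after sham surgery. All were hearts of male C57/BL6 mice given as 8 weeks old, with 1 array per heart and 4 hearts per group, and the labels do not say what nc stands for in either group. Nothing in the labels says which region of the heart was sampled or how large the infarcts were.

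A miRNA is a short RNA that guides a silencing complex to messenger RNAs, mainly by pairing through its seed, bases 2 to 8. miR-223 is abundant in neutrophils and monocytes, and miR-142 is made in nearly all blood-forming cells. miR-155 and miR-146a are induced when macrophages and lymphocytes are activated, where miR-146a restrains NF-kB signalling by repressing Traf6 and Irak1, and miR-150 is a miRNA of mature B and T cells that represses Myb. After coronary ligation, neutrophils and then monocytes enter the injured wall and lymphocytes follow, while a scar replaces the lost muscle. Some of these miRNAs are not confined to leukocytes. miR-146a, for example, is also made by endothelial cells. In tissue RNA, fewer cells of a type and less miRNA per cell cannot be told apart.

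The mature sequences of 7 of the 8 were matched by name in RefSeq (build GRCm38.p6), and miR-150-5p is named only. They are shown 5′ to 3′ with the seed in capitals, because members that share a seed can pair with the same sites.
miR-223-3p: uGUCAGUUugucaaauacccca
miR-142a-5p: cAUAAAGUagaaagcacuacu
miR-142a-3p: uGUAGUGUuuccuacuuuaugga
miR-155-5p: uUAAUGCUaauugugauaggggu
miR-146a-5p: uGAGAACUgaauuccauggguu
miR-146b-5p: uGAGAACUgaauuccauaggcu
miR-342-3p: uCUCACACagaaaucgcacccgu

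The 7 sequences carry 6 different seeds. Only miR-146a-5p and miR-146b-5p share one, GAGAACU, and no other mature mouse miRNA of the 1679 in the RefSeq table has it. Counted from the 5′ end, they differ at 2 of 22 bases, G18A and U21C from miR-146a-5p to miR-146b-5p, both outside the seed. Each of the other 5 seeds belongs to a single mature miRNA of the table. In build GRCm38.p6, miR-223-3p lies at chrX:96242884-96242905 on the plus strand, inside the gene F630028O10Rik. Both arms of miR-142a come from a single hairpin on the plus strand of chromosome 11, at chr11:87756867-87756887 for miR-142a-5p and chr11:87756903-87756925 for miR-142a-3p, and the miR-142b gene overlaps both from the minus strand. miR-155-5p lies at chr16:84714143-84714165 on the plus strand within its non-coding host gene Mir155hg. miR-146a-5p lies at chr11:43374435-43374456 on the minus strand, and miR-146b-5p at chr19:46342790-46342811 on the plus strand, so the same-seed members come from different chromosomes. miR-342-3p lies at chr12:108658680-108658702 on the plus strand within the bounds of Evl, a gene for an actin-regulating protein.

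Values are log2 intensities as deposited, so that a difference of 1 is a doubling of signal. Groups were compared with limma, a linear model fitted to all 1908 mature probe sets with variances shared between them, and p-values were adjusted over all 1908 by the Benjamini-Hochberg method. The background was read from 17 spike-in controls near the floor of the scale, which reached at most 2.06 on any array. On that measure 6 of the 8 members lay above the background on all 8 arrays and 2, the arms of miR-142a, on none. The background was exceeded by 499 to 540 mature probe sets in each MI heart and by 457 to 546 in each sham heart, the lowest number in sham hearts 3 and 4. The bacterial hybridisation controls averaged 11.49 ± 0.15 in MI hearts and 11.44 ± 0.37 in sham hearts (SD, n = 4 each). Because no other probe set of the table could be named, the markers of heart muscle, red cells, fibroblasts and vessels were not analysed here.

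Of the 8 leukocyte miRNAs, 0 passed an adjusted p of 0.05 in limma, where 0.524% of all mature probe sets did. Their adjusted p ran from 0.331 to 0.991. At an unadjusted p under 0.05, miR-146b-5p was higher in MI hearts, where 3.09% of all mature probe sets were higher, and miR-150-5p was lower, where 3.20% were lower. Among the 521 mature probe sets whose mean exceeded the background, the corresponding shares were 6.91% higher and 8.45% lower. The members' median difference was 0.08 log2 units, against -0.0039 over all mature probe sets. Both medians include readings at the floor. For the 6 members above the background the median was 0.11, against -0.05 over the 521 mature probe sets. Among the activation-linked miRNAs the difference was 1.74 for miR-146b-5p and near 0 for miR-155-5p, and among the lymphocyte miRNAs it was -0.75 for miR-150-5p and 0.07 for miR-342-3p.

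**Figure D1:**
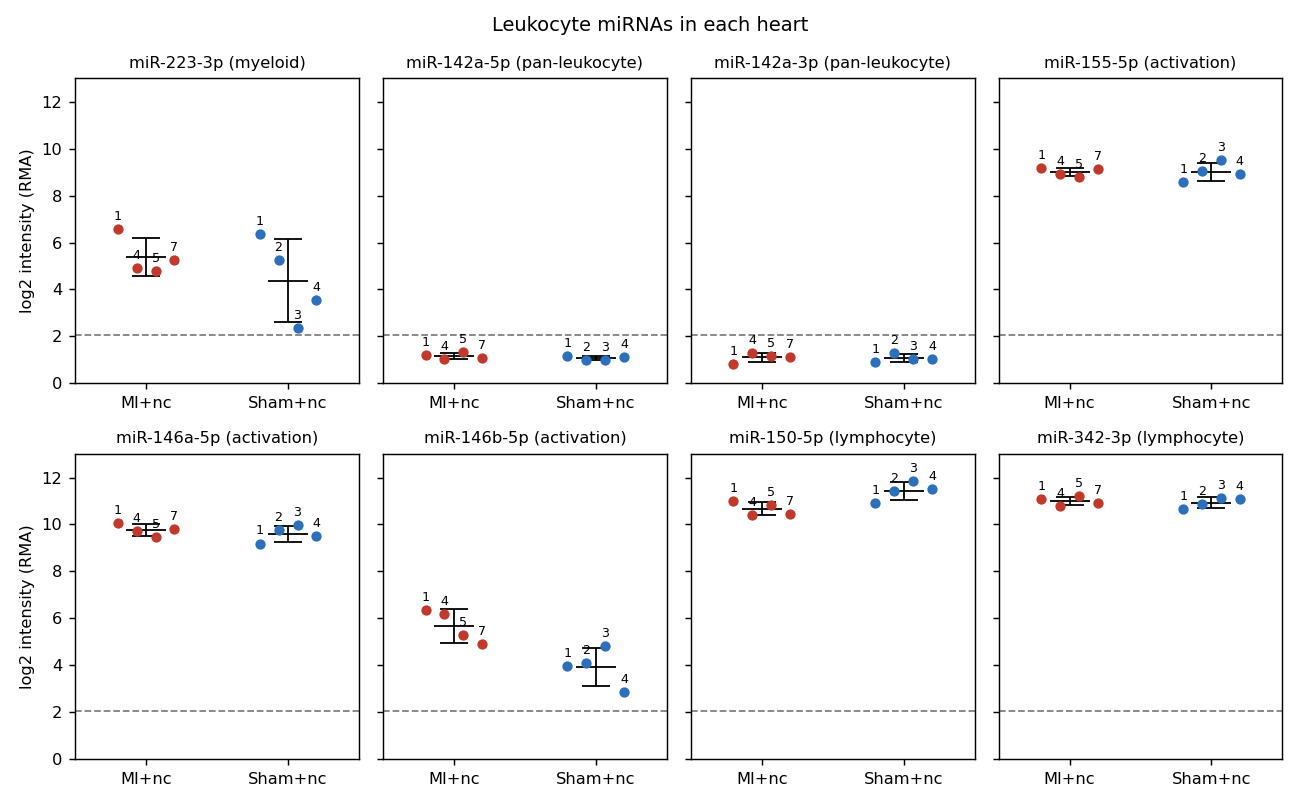
Log2 intensity of each of the 8 leukocyte miRNAs in every heart, MI+nc (red) left of Sham+nc (blue). Points carry the heart number, bars are the group mean ± SD (n = 4), and the dashed line is the 2.06 of the dim spike-in controls. The miR-142a arms lie under that line in all 8 hearts, miR-146b-5p is higher in every MI heart than in any sham heart, and the sham values of miR-223-3p spread from 2.36 to 6.35.

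The myeloid member, miR-223-3p (MIMAT0000665_st), measured 6.57, 4.92, 4.80 and 5.26 log2 units in MI hearts 1, 4, 5 and 7. In sham hearts 1 to 4 it measured 6.35, 5.26, 2.36 and 3.53. The groups overlapped: sham hearts 1 and 2 lay within the MI range, while sham hearts 3 and 4 read below all of them, and sham heart 3 came close to the background. The group means were 5.39 ± 0.81 in MI hearts and 4.38 ± 1.78 in sham hearts (SD, n = 4 each), a difference of 1.01 (standard error 0.85, limma, adjusted p = 0.925). The 95% interval, -0.94 to 2.96, holds anything between 0.522-fold and 7.76-fold. The data therefore leave the direction of a change in miR-223-3p unsettled.

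Sham hearts differed widely in miR-223-3p. Their values spanned 4.00 log2 units, a 16.0-fold range of signal, while the MI hearts spanned 1.77, a 3.41-fold range. Of the 521 mature probe sets with a mean above the background, 4 had a larger SD among sham hearts than miR-223-3p, whereas 11.7% had a larger SD among MI hearts. Leaving out both sham hearts 3 and 4 was a choice made after the data were seen. They had the fewest probe sets above the background and also the lowest miR-223-3p readings. Their removal could therefore only lower the difference, which was then -0.42 (limma, adjusted p = 0.925). Without sham heart 3 alone it was 0.34, and without sham heart 1 it was 1.67 (limma, adjusted p = 0.970 and 0.577). Without MI heart 1 it was 0.62 (limma, adjusted p = 0.972).

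The pan-leukocyte miRNA miR-142a was not measurable through either arm. The 5p arm (MIMAT0000154_st) read 1.19, 1.04, 1.32 and 1.06 in MI hearts 1, 4, 5 and 7, against 1.17, 0.99, 0.98 and 1.13 in sham hearts 1 to 4. The 3p arm (MIMAT0000155_st) read 0.81, 1.31, 1.16 and 1.10 in the same MI hearts, against 0.90, 1.30, 1.04 and 1.03 in the sham hearts. Every one of these 16 readings lay under the 2.06 of the dim controls. The fitted differences, 0.09 for the 5p arm and 0.03 for the 3p arm, compare readings at the floor (limma, adjusted p = 0.933 and 0.982). They give no fold change and do not bear on how much miR-142a the hearts held, nor do they show that it was absent.

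miR-155-5p (MIMAT0000165_st), which is processed from the Mir155hg transcript, read 9.17, 8.94, 8.81 and 9.12 in MI hearts 1, 4, 5 and 7. In sham hearts 1 to 4 it read 8.60, 9.04, 9.52 and 8.91. All MI values lay inside the sham range. The means were 9.01 ± 0.16 in MI hearts and 9.02 ± 0.38 in sham hearts (SD, n = 4 each), a difference of -0.01 (standard error 0.19, limma, adjusted p = 0.991). The 95% interval of the fold ran from 0.733 to 1.35. That interval bounds the change these hearts allow, and a change inside it could not be told from none.

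miR-146a-5p (MIMAT0000158_st), a feedback inhibitor of NF-kB signalling, read 10.08, 9.72, 9.48 and 9.79 in MI hearts 1, 4, 5 and 7. In sham hearts 1 to 4 it read 9.19, 9.76, 9.98 and 9.52. The groups overlapped, with the highest reading in MI heart 1 and the lowest in sham heart 1. The means were 9.77 ± 0.25 in MI hearts and 9.61 ± 0.34 in sham hearts (SD, n = 4 each), a difference of 0.16 (standard error 0.19, limma, adjusted p = 0.933). The interval of the fold was 0.820 to 1.51.

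Its seed twin miR-146b-5p (MIMAT0003475_st), whose shared capitals are shown above, read 6.35, 6.17, 5.27 and 4.88 in MI hearts 1, 4, 5 and 7. In sham hearts 1 to 4 it read 3.95, 4.09, 4.82 and 2.84. All MI readings exceeded all sham readings, as was the case for 2.88% of all mature probe sets and for 6.14% of those with a mean above the background. The reverse, with all MI readings lower, held for 0 members, for 1.26% of all mature probe sets and for 1.73% of those above the background. The margin was small: MI heart 7 exceeded sham heart 3 by 0.06.

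The means of miR-146b-5p were 5.67 ± 0.71 in MI hearts and 3.93 ± 0.82 in sham hearts (SD, n = 4 each). The difference was 1.74 (standard error 0.47), a 3.35-fold higher signal with a 95% interval of 1.58 to 7.09. Its unadjusted p was 0.00591, the 34th smallest of 1908, and its adjusted p was 0.331 (limma), so the difference did not pass over all mature probe sets. Among the members it had the smallest p. Over 18 alternative settings it kept its direction and had an unadjusted p under 0.05 (limma) in every one. The adjusted p ran from 0.0614 to 0.721 and passed 0.05 in none. Not all of these settings could alter the direction. Those that change only the test, the adjustment or the probe sets fitted leave the difference as it was. The joint adjustment with hairpins also repeats the unadjusted p. With each array centred on the median of its brightest 25% of probe sets, the setting with the smallest adjusted p, the difference was 1.85.

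**Figure D2:**
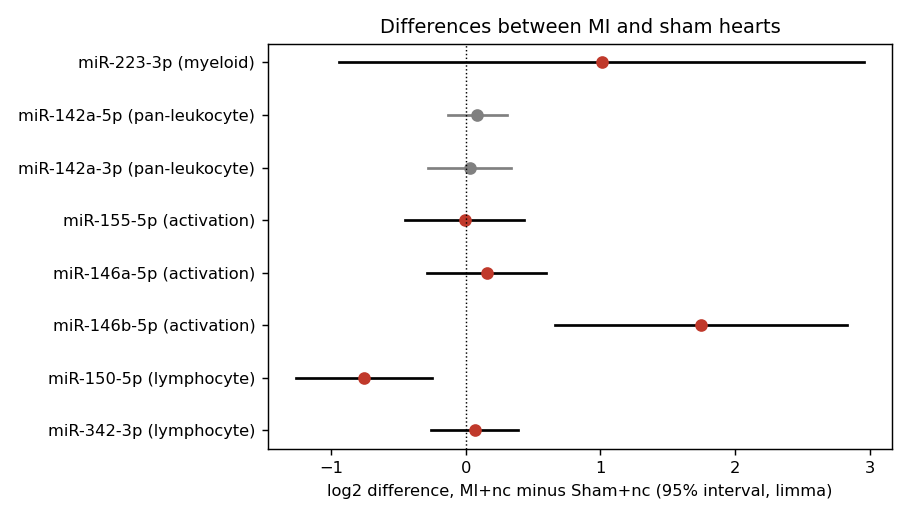
Difference in log2 intensity, MI+nc minus Sham+nc, for each miRNA, with the 95% interval from limma (not adjusted for the number of miRNAs). Grey marks the miR-142a arms, which read under the dim controls on all arrays. The intervals of miR-146b-5p (0.66 to 2.83) and miR-150-5p (-1.26 to -0.25) lie to one side of 0, and that of miR-223-3p is the widest.

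The lymphocyte member miR-150-5p (MIMAT0000160_st) read 10.99, 10.41, 10.82 and 10.45 in MI hearts 1, 4, 5 and 7. In sham hearts 1 to 4 it read 10.91, 11.42, 11.87 and 11.50. MI hearts 4, 5 and 7 lay below all sham hearts, and MI heart 1 lay between sham heart 1 and the other sham hearts, so the groups overlapped by that pair alone. The means were 10.67 ± 0.28 in MI hearts and 11.42 ± 0.39 in sham hearts (SD, n = 4 each). The difference was -0.75 (standard error 0.22), a ratio of 0.593 with a 95% interval of 0.418 to 0.840.

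The unadjusted p of miR-150-5p was 0.00860 and its adjusted p 0.414 (limma), so it did not pass either. Its direction was the same in all 18 alternative settings, some of which leave the difference as it was and could not change it. The differences ran from -0.93 to -0.50 and the adjusted p from 0.101 to 0.999 (limma). The unadjusted p was under 0.05 in 16 of the 18. An exception was the fit with the replicate number as a block, which rests on hearts 1 and 4 of each group alone (difference -0.50, limma, adjusted p = 0.999). Another was the fit without both sham hearts 3 and 4 (difference -0.50, limma, adjusted p = 0.747). Those are the sham hearts with the highest miR-150-5p readings.

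The other lymphocyte member, miR-342-3p (MIMAT0000590_st), which lies within Evl, read 11.10, 10.79, 11.20 and 10.91 in MI hearts 1, 4, 5 and 7. In sham hearts 1 to 4 it read 10.65, 10.88, 11.13 and 11.08. The groups overlapped from 10.79 to 11.13, and the lowest reading came from sham heart 1 and the highest from MI heart 5. The means were 11.00 ± 0.18 in MI hearts and 10.93 ± 0.22 in sham hearts (SD, n = 4 each), a difference of 0.07 (standard error 0.14, limma, adjusted p = 0.972). With a 95% interval of the fold from 0.836 to 1.31, it had the narrowest interval of the 6 members above the background.

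**Figure D3:**
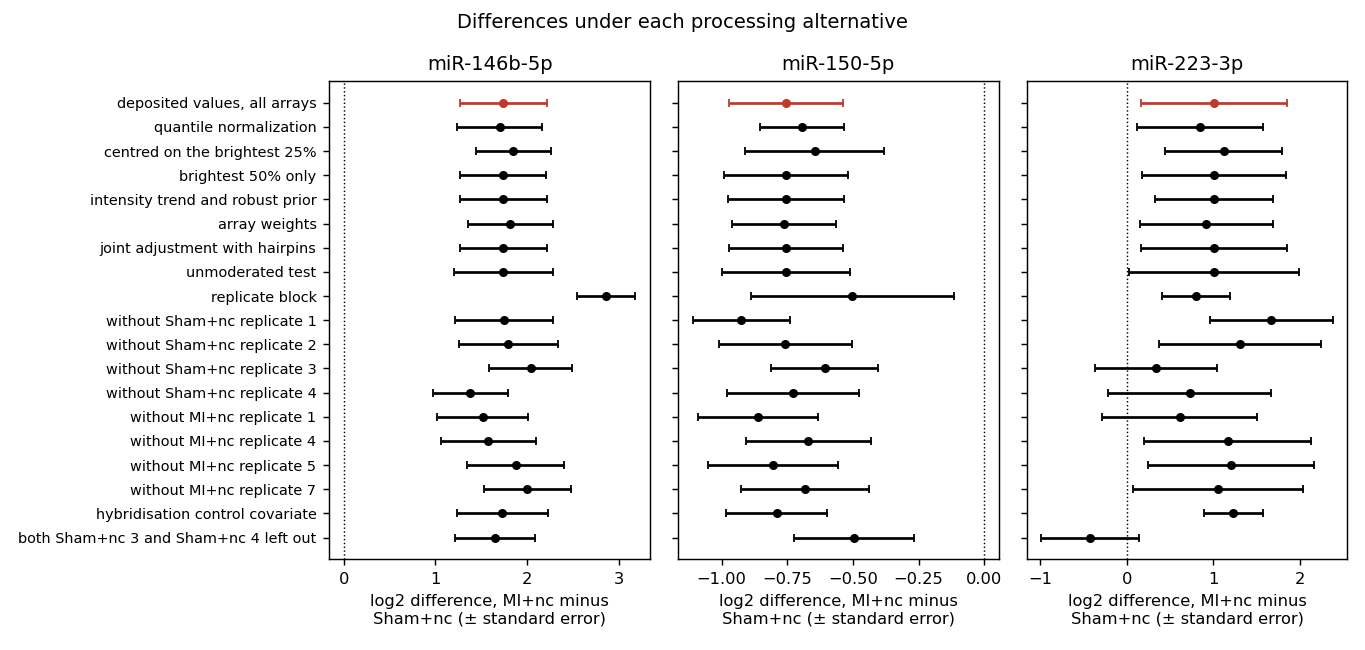
Difference in log2 intensity (MI+nc minus Sham+nc, ± standard error) for miR-146b-5p, miR-150-5p and miR-223-3p with the deposited values of all arrays (red) and under 18 alternative settings (black). miR-146b-5p stays between 1.38 and 2.86 and miR-150-5p between -0.93 and -0.50, while miR-223-3p runs from -0.42 to 1.67. The 2.86 comes from the replicate block, whose difference rests on hearts 1 and 4 of each group alone. The -0.42 comes from leaving out sham hearts 3 and 4, which had the lowest miR-223-3p readings.

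Whether members changed unequally was examined within each array, where a shift shared by a whole array cancels. The log2 value of one member was subtracted from that of another and the result compared between groups by permuting the array labels (an exact, two-sided permutation test with 70 assignments, which cannot give a p under 0.0286). There were 4 pairs, of which 3 set members of a role against each other and 1 set lymphocyte miR-150-5p against myeloid miR-223-3p, and p-values were adjusted over all 4. The pairs were chosen with earlier results of these data known, so their p-values are not independent evidence.

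miR-150-5p minus miR-342-3p was -0.10, -0.38, -0.39 and -0.46 in MI hearts 1, 4, 5 and 7, against 0.27, 0.54, 0.73 and 0.42 in sham hearts 1 to 4. The sign differed between the groups in every heart, and MI heart 1, which overlapped the sham hearts for miR-150-5p alone, lay below all of them here. The means were -0.33 ± 0.16 in MI hearts and 0.49 ± 0.20 in sham hearts (SD, n = 4 each), a difference of -0.82 (exact permutation test, p = 0.0286, adjusted p = 0.0571). Since each probe set has its own response, the sign within a heart carries no meaning by itself, and the comparison bears only on unequal change of these lymphocyte miRNAs. It did not pass after adjustment.

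miR-146a-5p minus miR-146b-5p was 3.73, 3.55, 4.21 and 4.91 in MI hearts 1, 4, 5 and 7, against 5.24, 5.67, 5.16 and 6.68 in sham hearts 1 to 4. All MI values were lower than all sham values. The means were 4.10 ± 0.61 in MI hearts and 5.69 ± 0.70 in sham hearts (SD, n = 4 each), a difference of -1.59 (exact permutation test, p = 0.0286, adjusted p = 0.0571). This difference did not pass after adjustment either. The sequences share 20 of 22 bases, and how much of each signal came from the other miRNA was not tested.

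The groups overlapped for the other pairs. miR-150-5p minus miR-223-3p was 5.28 ± 0.66 in MI hearts and 7.05 ± 2.15 in sham hearts (SD, n = 4 each), a difference of -1.76 (exact permutation test, p = 0.171, adjusted p = 0.229). The sham spread was wider than that of miR-223-3p alone (SD 1.78), because miR-150-5p (SD 0.39) ran in the opposite order over the sham hearts. miR-142a-3p minus miR-142a-5p was -0.06 ± 0.27 in MI hearts and 0.0016 ± 0.25 in sham hearts (SD, n = 4 each; exact permutation test, p = 0.743, adjusted p = 0.743), a comparison of readings at the floor. With 70 assignments and 4 pairs, an adjusted p under 0.05 would have needed at least 3 pairs at the smallest possible p.

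**Figure D4:**
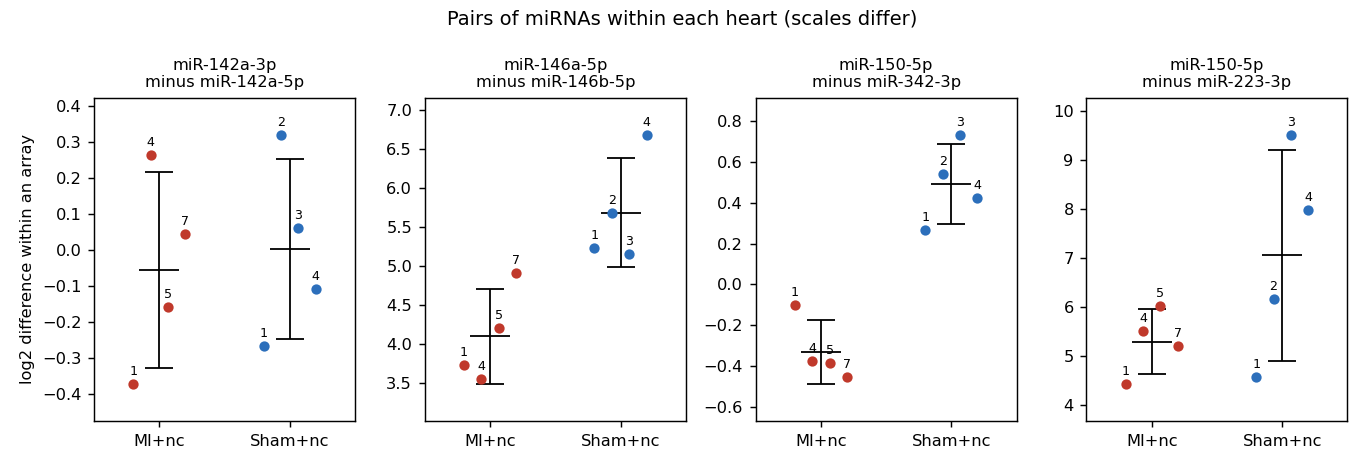
Log2 difference between a pair of miRNAs within each array, MI+nc (red) left of Sham+nc (blue), with heart numbers and the group mean ± SD (n = 4). Each panel has its own vertical scale. The groups do not overlap for miR-146a-5p minus miR-146b-5p or for miR-150-5p minus miR-342-3p, and they overlap for the other pairs.

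The members also differed in how they varied among hearts of a group. In sham hearts, miR-155-5p, miR-146a-5p, miR-150-5p and miR-342-3p were all lowest in heart 1 and highest in heart 3. Sham heart 3 exceeded sham heart 1 by 0.92 for miR-155-5p, 0.79 for miR-146a-5p, 0.95 for miR-150-5p and 0.49 for miR-342-3p. miR-223-3p ran the other way and was highest in sham heart 1 and lowest in sham heart 3. miR-146b-5p was also highest in sham heart 3, but lowest in sham heart 4. How many of all mature probe sets share these orders was not counted, so they are not shown to be particular to the members. The arrays also differed as a whole, with 546 mature probe sets above the background in sham heart 1 and 457 in sham heart 3.

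The hybridisation controls differed among the same arrays. Their mean was 11.15 and 11.11 in sham hearts 1 and 2, and 11.87 and 11.61 in sham hearts 3 and 4, where miR-223-3p read low. Among sham hearts miR-223-3p was lowest in heart 3, which had the highest control mean. It was highest in heart 1, whereas the lowest control mean was in heart 2. In MI hearts 1, 4, 5 and 7 the control mean was 11.35, 11.56, 11.66 and 11.38. Among them miR-223-3p was highest in the heart with the lowest control mean and lowest in the heart with the highest. With the control mean as a covariate, a fit added after these values were seen, the difference in miR-223-3p was 1.23 (standard error 0.34, limma, unadjusted p = 0.00793, adjusted p = 0.352). In the same fit it was 1.73 for miR-146b-5p and -0.79 for miR-150-5p (limma, adjusted p = 0.393 and 0.234), close to the values without the covariate. Because the covariate was chosen with these readings in view, the smaller standard error and p of miR-223-3p in this fit are no test of it. The part of the hybridisation in the spread of miR-223-3p was not tested.

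**Figure D5:**
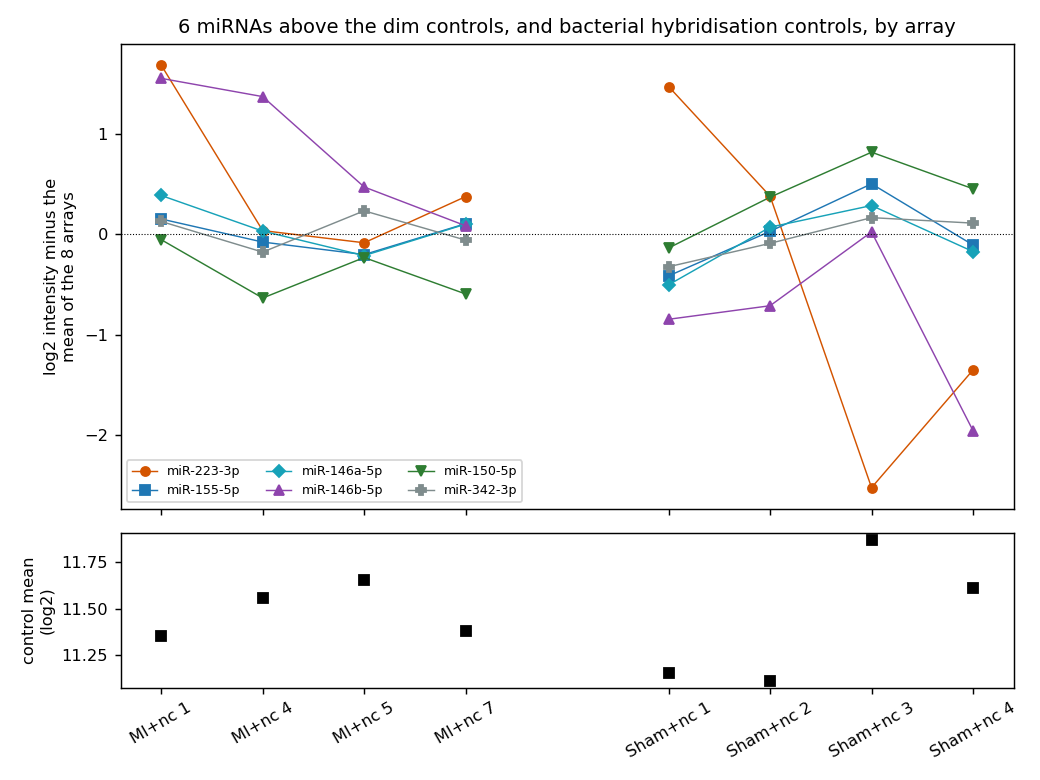
Upper panel, log2 intensity of the 6 miRNAs above the dim controls minus their own mean over the 8 arrays. Lower panel, mean log2 intensity of 15 bacterial hybridisation control probe sets on the same arrays (its axis does not start at 0). Lines join hearts of a group for legibility only and mark no order. miR-223-3p is lowest in sham heart 3, where the controls read highest at 11.87 and miR-150-5p reads highest.

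The profile of miR-146b-5p over the 8 arrays was compared with the members whose mean was 5 or more, by the root mean square difference between profiles centred on their own means. That limit left out miR-223-3p, with a mean of 4.88, although miR-146b-5p itself had a mean of 4.80. The nearest was miR-146a-5p at 0.98 log2 units, followed by miR-155-5p at 1.05 and miR-342-3p at 1.09, while miR-150-5p lay at 1.40. The measure depends on how much a profile varies as well as on its shape, so an almost level profile can rank near. The order therefore does not show which member followed miR-146b-5p. Other probe sets lay closer: of the 271 mature probe sets in that range of means, 19 lay nearer to miR-146b-5p than miR-146a-5p did, the nearest at 0.47, and the files give no names for them.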

How the data were processed

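Total RNA of 8 mouse hearts was tailed with poly(A), labelled with biotin and hybridised to Affymetrix miRNA 4.0 arrays, per the labels' protocols and the series' design text. The deposited values are log2 intensities made by the authors with RMA, per the submitters' processing notes; the version of RMA and the software are not stated in them. They ran from 0.617 to 15.9. The table gives miRBase accessions without names. The 8 members were named through the list of accessions and names that defined them, and 0 other probe sets could be named, so the planned counts over a wider leukocyte list, other arms, hairpin precursors and marker miRNAs were not run. Members, pairs and lists were chosen with earlier results of these data known.

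limma 3.58.1 in R 4.3.3 (lmFit, eBayes, two-sided, group as the only term) was fitted to all 1908 mature probe sets and 8 arrays, with Benjamini-Hochberg adjustment and a threshold of 0.05, and was tested on simulated data. Nothing in the labels says that the hearts were processed in separate batches. The background is the highest reading of the 17 spike-in controls with a mean under 3. The named miRNAs are all 8 members, as the rule required, and the profile comparison took the member with the smallest p because none passed. The number of arrays limits the precision. Only the numbers 1 and 4 occur in titles of both groups. The labels do not say that these numbers pair hearts, so the hearts were not treated as pairs. The same-numbered hearts deviated from their group means with a correlation of -0.29 and -0.04, which cannot settle whether they were paired.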

Additional observations from a re-analysis of the deposited data

How the results depend on the processing

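None of the 8 members passed an adjusted p of 0.05 under any of 18 alternatives in limma, 2 of which (the hybridisation covariate, and both sham hearts 3 and 4 left out) were chosen after seeing the data. Few mature probe sets passed in those fits at all. The number ran from 0 of 1908 with the replicate block to 25 of 1908 after centring on the brightest 25%. It was 20 when only the brightest 50% were fitted. With so few passing, 0 of 8 is not shown to be particular to the members. The smallest adjusted p over members and alternatives was 0.0614, for miR-146b-5p after centring on the brightest 25%. The restriction to the brightest 50% held 6 members and left out the miR-142a arms. Like the settings that change only the test or the adjustment, this restriction leaves the differences as they were. The fit with the replicate number as a block leaves 1 residual degree of freedom. Its difference rests on hearts 1 and 4 of each group alone, as no other number occurs in both groups. The difference was 2.86 for miR-146b-5p (limma, adjusted p = 0.650) and -0.50 for miR-150-5p (limma, adjusted p = 0.999). In that fit 0 of 1908 mature probe sets passed.

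Directions turned under some alternatives in miR-155-5p, miR-223-3p, both miR-142a arms and miR-342-3p, none of which had passed. The difference of miR-155-5p was 0.036 after quantile normalization, 0.10 after centring, 0.30 with the replicate block and 0.19 without both sham hearts 3 and 4, and without single arrays it lay between -0.15 and 0.16. Without both sham hearts 3 and 4, miR-223-3p was -0.42 and miR-142a-3p -0.0047. Those hearts held the lowest miR-223-3p readings, so their removal could only lower its difference. With the replicate block miR-142a-5p was -0.035. Leaving out each array gave 0.34 to 1.67 for miR-223-3p, -0.041 to 0.12 for miR-142a-3p, -0.031 to 0.14 for miR-342-3p, 0.015 (without sham heart 1) to 0.28 (without sham heart 3) for miR-146a-5p, 1.38 to 2.04 for miR-146b-5p and -0.93 to -0.61 for miR-150-5p. The replicate block gave 0.55 for miR-146a-5p, which kept its direction under every alternative. The causes were not tested.

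Within arrays, leaving out each array gave -0.16 to 0.048 for miR-142a-3p minus miR-142a-5p, -1.86 to -1.26 for miR-146a-5p minus miR-146b-5p, -0.90 to -0.74 for miR-150-5p minus miR-342-3p and -2.59 to -0.94 for miR-150-5p minus miR-223-3p, as values with no test. Quantile normalization, which shifts probe sets unequally, raised the p of miR-146a-5p minus miR-146b-5p to 0.0571 (exact permutation test), and its adjusted p and that of miR-150-5p minus miR-342-3p to 0.114.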
